A study of Mus musculus with 6 samples.

Results

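Skeletal muscle supplies motor nerves with secreted survival factors and carries receptors for them, and 9 genes of this system were followed in the quadriceps of AR97Q mice with and without exercise. The genes were the ligands Bdnf, Ntf3, Ntf5, Gdnf, Cntf and Lif and the receptors Ngfr, Ntrk2 and Cntfr. They were chosen by name, through every non-control probe whose transcript belongs to one of them. No cutoff on their change was used, but earlier results of these data were known when they were chosen. The array held 11 probes for the 9 genes among its 56605 probes. At least 1 probe was well above background on at least 3 arrays for 8 of the genes, which entered the comparison of 25005 genes and transcripts. Lif did not pass that filter.

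AR97Q mice carry a human transgene with an expanded CAG tract on a C57BL/6J background, and they model spinal and bulbar muscular atrophy (SBMA), an inherited disease of motor neurons and muscle. Both groups were male AR97Q mice of 9 weeks of age, with 3 mice in each and 1 array per mouse. The exercised mice ran in a forced wheel at 5 m/min for 60 min a day, 5 days a week, for 4 weeks from 5 weeks of age, and the sedentary mice served as controls. Wild-type mice were not analysed here, so every value compares diseased muscle with diseased muscle.

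The neurotrophins are a small family of secreted dimers. Bdnf and neurotrophin-4, which mice encode in Ntf5, bind the receptor tyrosine kinase TrkB (Ntrk2), neurotrophin-3 (Ntf3) prefers TrkC (Ntrk3), and all of them and their precursors bind the p75 receptor (Ngfr). Gdnf belongs to a separate family that signals through the kinase Ret with a GFRα coreceptor, and Cntf and Lif are cytokines that signal through gp130 (Il6st) and the Lif receptor, which Cntf reaches through its own binding subunit, Cntfr. In muscle and nerve, these factors are known for motor neuron survival, for upkeep of the neuromuscular junction and for the response of Schwann cells to injury.

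Values are log2 of the processed signal, the background-subtracted brightness of a spot, minus the 75th percentile of that array. A value of 0 is therefore the brightness of the probe at that percentile, and values of different probes cannot be ranked against each other. The 75th percentile itself was 251 to 257 on the exercise arrays and 310 to 384 on the sedentary arrays, so unscaled signal was lower after exercise. All arrays were on 1 slide, on which the exercise arrays and that of sedentary mouse 1 lay in one strip and those of sedentary mice 2 and 3 in the other. The tissue label was borne out by its markers, since 8 of 8 skeletal muscle fibre genes were well above background on all 6 arrays. Precision is limited by the small number of arrays.

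Of the 8 genes tested, Ntf5 rose with exercise, Ngfr fell and 6 did not pass the threshold (limma, Benjamini-Hochberg adjusted p under 0.05 over all genes tested). Over all 25005 genes and transcripts, 11.5% rose and 6.12% fell, so 1 of 8 in each direction is close to the background, as are 2 of 8 against 17.6% in either direction. The exercise and sedentary arrays did not overlap for 4 of the 8, with Ntf5 and Gdnf above and Cntf and Ngfr below. That share was 43.2% over all genes and transcripts tested, 25.0% with the exercise arrays above and 18.2% with them below. The median log2 fold change was -0.21 over the 8 genes and 0.03 over all genes.

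**Figure D1:**
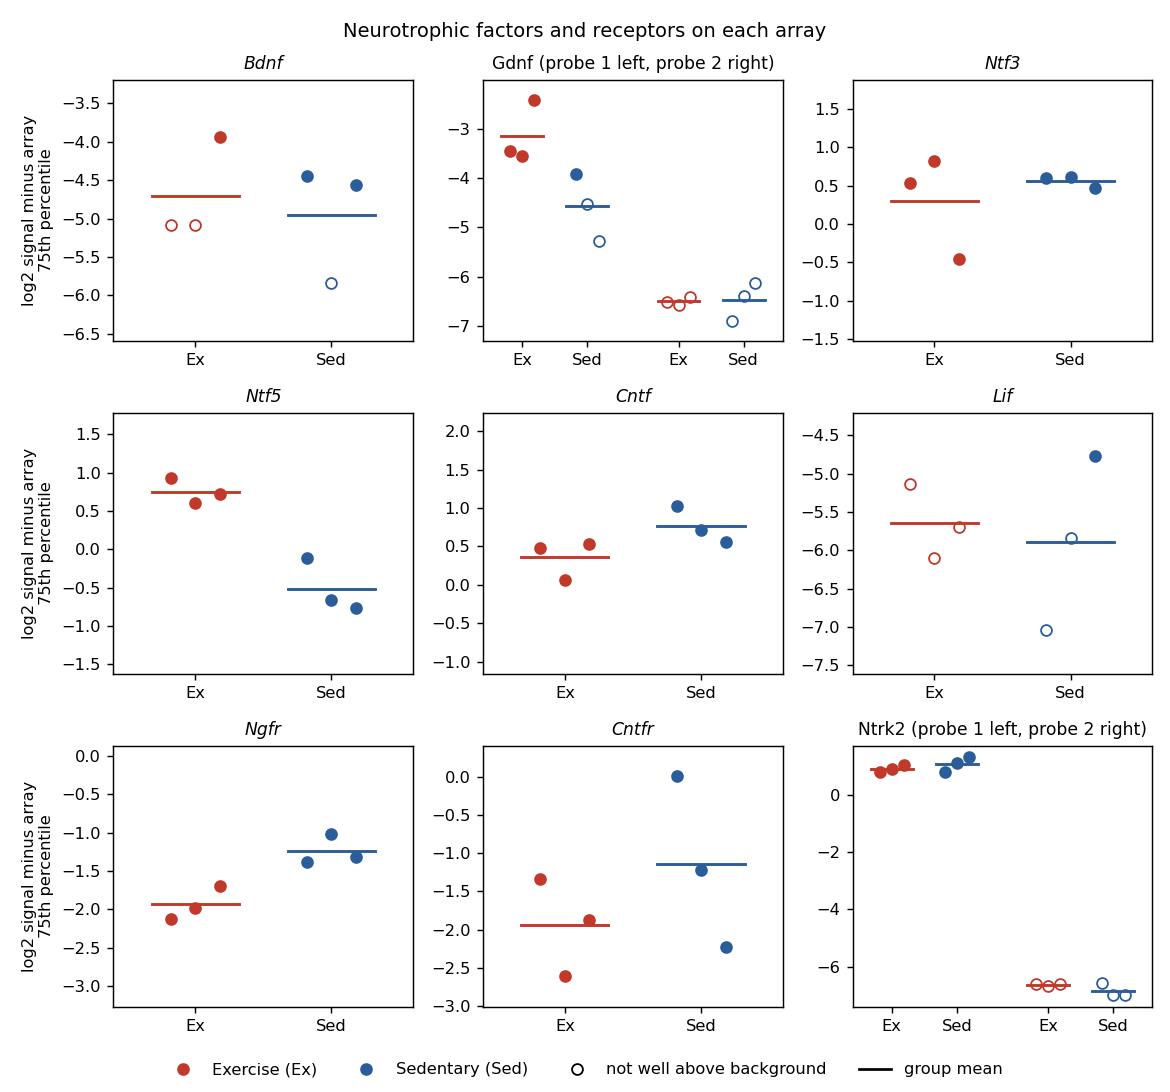
Each point is 1 array, with the log2 processed signal minus the 75th percentile of the array on the y axis, exercise in red, sedentary in blue and bars at the group means of 3 arrays. Open points were not well above background. Ntf5 separated upward after exercise and Ngfr downward, Bdnf and Lif were near the background, and the second probes of Gdnf and Ntrk2 were not well above background on any array.

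Among the neurotrophin ligands, the clearest change was in Ntf5. Its processed signal was 489, 390 and 411 in exercise mice 1 to 3 and 287, 234 and 225 in sedentary mice 1 to 3, and it was well above background on all 6 arrays. After scaling, the values were 0.93, 0.60 and 0.72 with exercise and -0.11, -0.66 and -0.77 without. The groups did not overlap, on the unscaled signal or on the scaled values.

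Ntf5 encodes neurotrophin-4, a TrkB ligand that muscle fibres make. Its mean was 0.75 ± 0.16 with exercise and -0.51 ± 0.35 without (SD, n = 3 each), a difference with a log2 fold change of 1.26 (SE 0.19, limma adjusted p = 0.0234). It also passed the study's stricter rule, which adds a minimum of 1 for the size of the log2 fold change and which 1.72% of all genes passed upward and 1.06% downward. A larger absolute change was seen for 2.06% of all genes tested. An exact two-sided permutation test of the 6 values gave p = 0.1, the smallest that 3 arrays against 3 allow.

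Sedentary mouse 1, in the strip of the exercise arrays, had the highest sedentary value of Ntf5. Against that mouse the exercise mean was higher by 0.86, and against the sedentary mice of the other strip by 1.46. With the strip as a block the adjusted p was 0.153. Leaving out any 1 array other than that of sedentary mouse 1 gave adjusted p-values between 0.0585 and 0.0957 for Ntf5, with log2 fold changes of 1.14 to 1.33, and 0 genes in all passed in 4 of those 5 fits and 1 in the fit without exercise mouse 1, while 6686 to 8146 had an unadjusted p under 0.05. Markers of skeletal muscle fibres moved in the same direction as Ntf5: 5 of 8 rose, against 11.5% of all genes. Their summed level, on a linear scale where the 75th percentile of the array is 1, was 3975 to 4522 with exercise and 2017 to 2825 without. Their part in the Ntf5 result was not tested.

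Bdnf, the TrkB ligand best known from the brain, was at the edge of detection. Its only probe was well above background in exercise mouse 3 and in sedentary mice 1 and 3, with a processed signal of 7.57, 7.52 and 16.3 with exercise and 14.3, 6.46 and 16.3 without. The scaled values were -5.09, -5.09 and -3.94 against -4.44, -5.84 and -4.56, and the groups overlapped. The log2 fold change was 0.24 (95% interval -0.92 to 1.41, limma adjusted p = 0.74), a range that holds a rise of more than 2-fold as well as no change. Its sign turned without scaling (-0.23), with spike-in probes as reference (-0.30), in the fit with the strip as a block (-0.26) and without exercise mouse 3 (-0.14) or sedentary mouse 2 (-0.20).

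Ntf3, the TrkC ligand on which the sensory neurons of muscle spindles depend, was well above background on all arrays and varied most among the exercised mice. Its scaled values were 0.53, 0.82 and -0.46 with exercise and 0.60, 0.61 and 0.47 without. The low value came from exercise mouse 3, exercise mouse 1 lay within the sedentary range and exercise mouse 2 above it. The log2 fold change was -0.26 (95% interval -1.04 to 0.52, limma adjusted p = 0.586), and it was 0.12 without exercise mouse 3.

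The receptor that changed was Ngfr. The promoter sequence is shown here because Ngfr is the called receptor, as the stretch of 250 bases upstream of its annotated start, chr11:95587699-95587948 on the minus strand of GRCm38.p6 (RefSeq). Capitals mark CAGCTG, an E-box that myogenic factors can bind, and the GC box GGGCGG or its reverse complement CCGCCC, the searched letters on both strands.
Ngfr: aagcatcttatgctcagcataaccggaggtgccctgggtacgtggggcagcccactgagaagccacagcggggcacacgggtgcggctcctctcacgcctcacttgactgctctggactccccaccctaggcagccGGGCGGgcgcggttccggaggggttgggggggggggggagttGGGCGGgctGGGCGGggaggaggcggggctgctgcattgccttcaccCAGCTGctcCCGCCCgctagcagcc
The window held 1 E-box and 4 GC boxes, and 70.4% of its bases were G or C. Of all 32851 promoter windows of this length, 13.0% held the E-box and 32.7% a GC box, so neither is rare, and the matches are a description of the sequence only.

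Ngfr encodes p75, the receptor shared by all neurotrophins, which Schwann cells display after loss of axon contact. Its processed signal was 58.9, 64.8 and 77.1 with exercise and 119, 184 and 154 without, well above background on all arrays. The scaled values were -2.12, -1.98 and -1.70 against -1.39, -1.01 and -1.32. The highest exercise value, in mouse 3, lay below the lowest sedentary value, in mouse 1.

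The means of Ngfr were -1.94 ± 0.22 with exercise and -1.24 ± 0.20 without (SD, n = 3 each). The level was 1.62-fold higher in sedentary muscle, with a log2 fold change of -0.70 (SE 0.15, limma adjusted p = 0.0338). Ngfr did not reach the study's minimum of 1 for the absolute log2 fold change. Against sedentary mouse 1 alone the difference was -0.55 and against the other strip -0.77, and with the strip as a block the adjusted p was 0.26. It was 0.0504 when the array median was subtracted in place of the 75th percentile, and 0.0607 to 0.111 when any 1 array other than that of sedentary mouse 1 was left out.

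Ngfr is not specific to muscle fibres, and in bulk tissue fewer cells of a type and less RNA per cell cannot be told apart. Of 14 Schwann cell markers, 12 were tested and 1 fell, against 6.12% of all genes. Of the 12, 10 had lower means with exercise, while the median log2 fold change of all genes was 0.03. Sox10, which defines the lineage, had a log2 fold change close to that of Ngfr but did not pass the threshold (-0.68, limma adjusted p = 0.0563). Gfap and Cdh19 of that list were not tested because they were dim.

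The summed Schwann cell level was 47.8 to 58.0 with exercise and 54.6 to 70.9 without, and so overlapped between the groups, unlike Ngfr. Among satellite cell markers, 2 of 5 tested fell, against 6.12% of all genes. They were Pax7 (-0.60, limma adjusted p = 0.0255) and Megf10 (-0.91, adjusted p = 0.0348), and the summed level of the list was 7.37 to 7.70 against 9.02 to 11.2. Of 15 genes of the denervation response, some of which the study picked from these arrays, 11 fell and 2 rose. The shares over all genes were 6.12% and 11.5%. The median log2 fold change of the list was -1.18. The list takes no account of the direction in which denervation moves each gene. Of its 2 genes that rose, Dach2 passed the filter on dim probes through the exercise arrays alone. The other, Myh8, rose by 0.75 on the probe with the higher mean. Its second probe gave -0.71, so its direction depends on the probe. The summed level of the list, most of which came from that first Myh8 probe, was 1194 to 1283 with exercise and 836 to 968 without. The part of these markers in the Ngfr result was not tested.

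**Figure D2:**
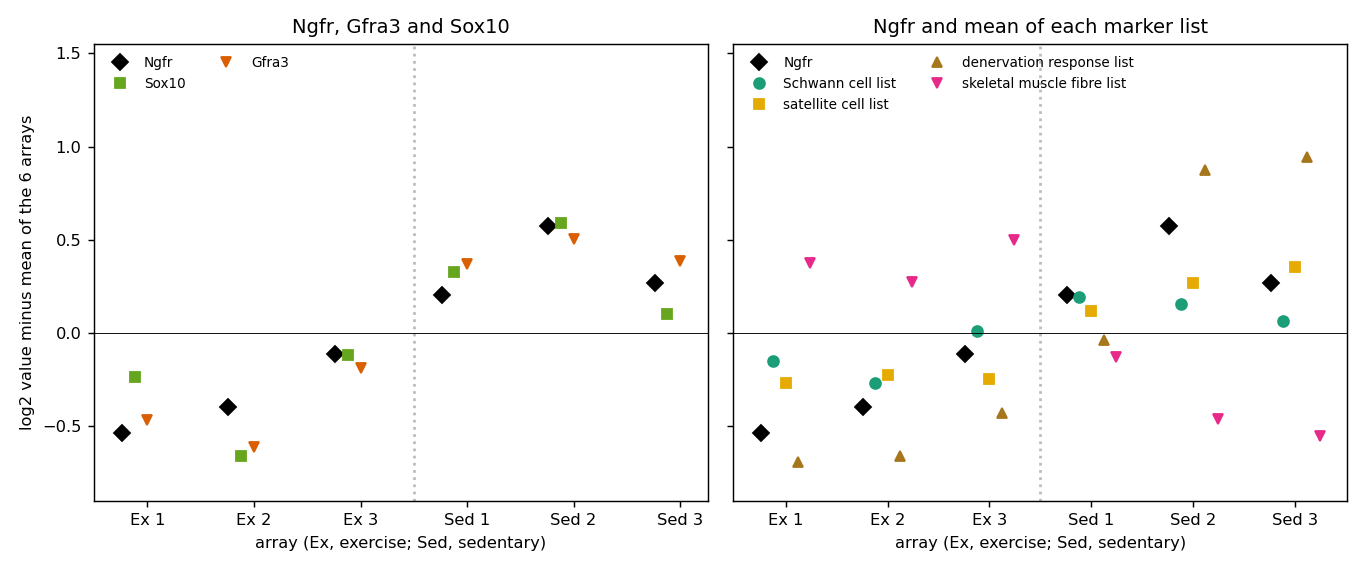
Left, log2 values of Ngfr, of Gfra3 and of the Schwann cell gene Sox10 on each array, minus the mean of the 6 arrays. Right, Ngfr beside the mean of 4 marker lists treated in the same way. Ngfr, Gfra3 and Sox10 were lower in all exercise mice than in all sedentary mice, and the muscle fibre list lay on the opposite side.

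Ntrk2, the TrkB receptor of Bdnf and neurotrophin-4, was represented by a probe for each of 2 transcripts, and they differed in detection. The probe assigned to NM_008745, the transcript of the receptor form without the kinase domain, was well above background on all arrays. Its scaled values were 0.81, 0.90 and 1.03 with exercise and 0.80, 1.12 and 1.31 without, and the groups overlapped. The log2 fold change was -0.16 (95% interval -0.52 to 0.20, limma adjusted p = 0.467).

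The probe assigned to NM_001025074, the transcript with the kinase domain, had a processed signal of 2.51 to 3.23 and was not well above background on any array. It was not tested. Where the 2 probes lie on their transcripts is not given in the sources used here. Unscaled signal of the detected probe was lower in all exercise mice, 449 to 511 against 538 to 948, and its change passed the threshold without scaling (-0.63, adjusted p = 0.0465) and with spike-in probes as reference (-0.70, adjusted p = 0.0428). Those scalings also moved the median of all genes, to -0.45 and -0.51. Within the strip that holds both groups its sign turned, with a difference of 0.12.

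Gdnf, a potent survival factor for motor neurons that muscle can make, had higher values after exercise that did not pass the threshold. Its window is shown because the arrays of the groups did not overlap, for the first of the 2 starts listed for it, chr15:7809798-7810047 on the plus strand of GRCm38.p6 (RefSeq). Capitals mark TGACG or its reverse complement CGTCA, the short form of the cAMP response element.
Gdnf: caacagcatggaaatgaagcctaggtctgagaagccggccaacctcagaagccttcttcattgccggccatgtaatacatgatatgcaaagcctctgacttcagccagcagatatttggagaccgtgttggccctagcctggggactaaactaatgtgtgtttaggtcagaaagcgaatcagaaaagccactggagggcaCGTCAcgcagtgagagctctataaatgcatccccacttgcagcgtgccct
The window held 1 such match, which 17.8% of all windows also held, and no GC box, and 50.8% of its bases were G or C.

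The first Gdnf probe had a processed signal of 23.4, 21.7 and 47.1 with exercise and 20.4, 16.0 and 9.93 without. It was well above background on 3 of 3 exercise arrays but only on that of mouse 1 among the sedentary ones, so the sedentary mean rests mostly on values near the background. The scaled values were -3.46, -3.56 and -2.41 against -3.93, -4.53 and -5.27. The highest value was in exercise mouse 3, and the 2 groups did not overlap.

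The log2 fold change of Gdnf was 1.43 (SE 0.44, 95% interval 0.37 to 2.49, limma adjusted p = 0.0687). It was 0.78 against sedentary mouse 1 and 1.76 against the other strip. The adjusted p was 0.0449 without sedentary mouse 1 and at most 0.0445 with spike-in probes as reference, normexp background correction, array weights or a trended and robust variance. In limma with the strip as a block it was 0.469. It was 0.0965 to 0.167 when any 1 array other than that of sedentary mouse 1 was left out, and 0.159 with the methods' t-test. A second probe of the same transcript had a processed signal of 2.62 to 5.48, was not well above background on any array and showed no separation.

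Of the cytokines, Cntf, which Schwann cells of adult nerve store and which acts on motor neurons and muscle, had lower values after exercise without passing the threshold. Its scaled values were 0.48, 0.06 and 0.54 with exercise and 1.02, 0.71 and 0.56 without. The groups did not overlap, but exercise mouse 3 and sedentary mouse 3 differed by less than the spread within either group. The log2 fold change was -0.41 (SE 0.18, 95% interval -0.84 to 0.03, limma adjusted p = 0.154). It passed without scaling (-0.88, adjusted p = 0.0115), with spike-in probes as reference (-0.95, adjusted p = 0.00918) and with normexp correction (-0.41, adjusted p = 0.0358). Without scaling and with the spike-in probes the median of all genes also moved, to -0.45 and -0.51. In limma with the strip as a block the adjusted p of Cntf was 0.214, and with any 1 array left out it was 0.159 to 0.319. The reference annotation also lists a readthrough transcript, Gm44505, over the same locus, so the signal cannot be assigned to Cntf alone.

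Lif, a cytokine that muscle releases after injury, was well above background on 1 array, that of sedentary mouse 3. Its processed signal was 7.32, 3.73 and 4.85 with exercise and 2.35, 6.45 and 14.0 without. No fold change is given, because the signal of either group was at or near the background.

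Cntfr, the Cntf binding subunit, was well above background on all arrays and had the largest standard error of the 8 tested genes (0.60). Its scaled values were -1.34, -2.61 and -1.88 with exercise and 0.01, -1.21 and -2.23 without. Sedentary mouse 1 was far above the other mice, sedentary mouse 3 lay within the exercise values, and the groups overlapped. The log2 fold change was -0.80 (95% interval -2.26 to 0.66, limma adjusted p = 0.373). It ranged from -1.95 against sedentary mouse 1 to -0.22 without that mouse.

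The genes around these members in their pathways were described from 7 lists of 95 genes, of which 82 were tested. Of these, 10 rose and 5 fell, which is 12.2% and 6.10% against 11.5% and 6.12% over all genes. The median log2 fold change over the 82 was -0.01. Without any 1 array other than that of sedentary mouse 1, and with the strip as a block, 0 of the 82 passed, and without sedentary mouse 1 the counts were 12 and 6.

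In the neurotrophin family list, 7 of 10 genes were tested, with 1 that rose and 2 that fell. Maged1, which encodes an adaptor that binds p75, fell, as Ngfr did (-0.94, SE 0.21, limma adjusted p = 0.0339), and its second probe gave -0.90. Ntrk3, the receptor of neurotrophin-3, fell by 0.53 (adjusted p = 0.0329) on the probe with the higher mean, but its second probe gave 0.30 (adjusted p = 0.331), so its direction depends on the probe.

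In the GDNF family list, 2 of 8 tested genes rose and 2 fell. The ligand neurturin (Nrtn) rose by 0.66 (SE 0.15, limma adjusted p = 0.0345), and 0.77 on its second probe. The coreceptor Gfra4 rose by 0.57 (adjusted p = 0.0413) but by a second probe gave -0.05. The coreceptor of artemin, Gfra3, fell by 0.84 (SE 0.13, adjusted p = 0.0234), and Ncam1, an adhesion molecule of denervated fibres that also binds GDNF, fell by 0.77 (adjusted p = 0.0239), with -0.71 to -1.55 on its 3 other probes. The receptors of Gdnf itself, named for that role after their values were seen, did not pass, with 0.34 for Gfra1 (adjusted p = 0.193) and 0.53 for Ret (adjusted p = 0.199). Against sedentary mouse 1 both were near 0, at 0.03 and 0.00.

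**Figure D3:**
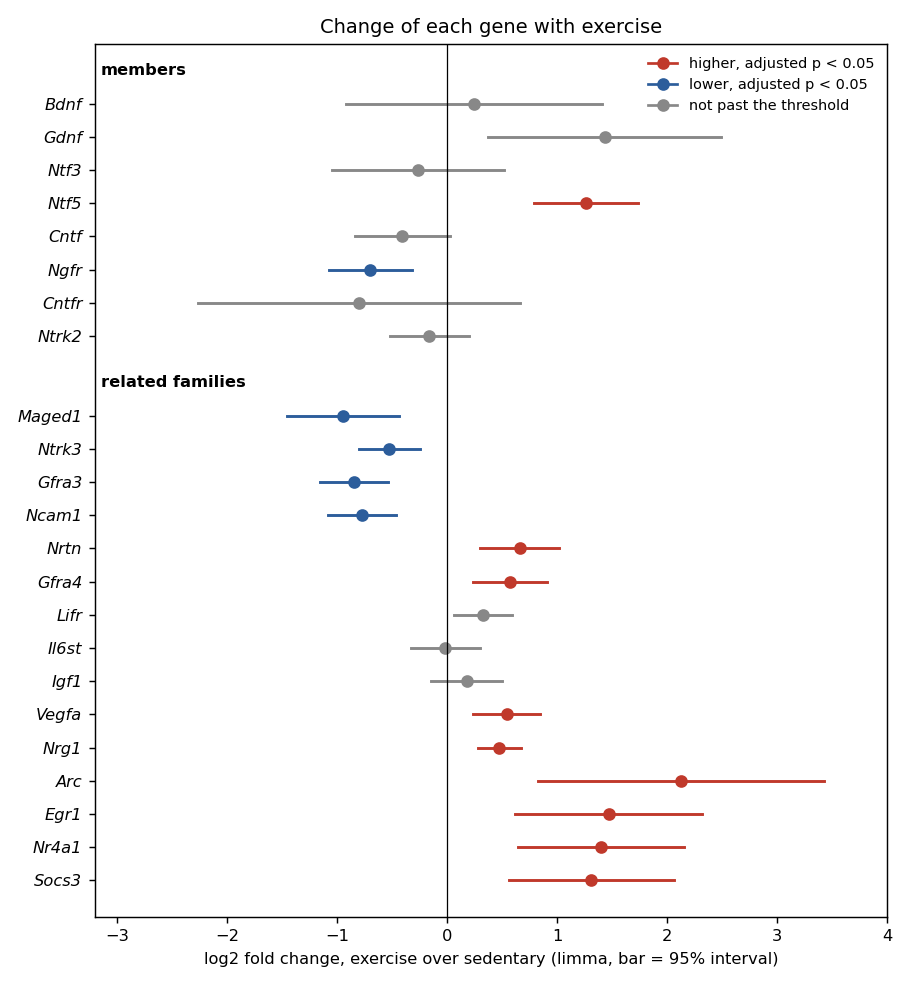
Log2 fold change of exercise over sedentary for the 8 tested members and the named genes of the related families, with bars for the 95% interval from limma. Red and blue mark an adjusted p under 0.05, higher and lower after exercise. Ntf5, at 1.26, and Ngfr, at -0.70, are the coloured members, and Bdnf and Cntfr have the widest intervals among members.

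In the gp130 cytokine list, which holds the signalling partners of Cntf and Lif, 0 of 10 tested genes passed the limma threshold, 2 had an unadjusted p under 0.05, and the methods' t-test also called 0. The shared signalling subunit Il6st had a log2 fold change of -0.02 (95% interval -0.33 to 0.30) and the Lif receptor Lifr 0.33 (0.06 to 0.59, adjusted p = 0.0863). Among the 8 tested proteases and inhibitors that process neurotrophin precursors, limma and the methods' t-test called 0, and 0 had an unadjusted p under 0.05.

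Of 16 tested genes in the list of other muscle trophic factors, 2 rose and 0 fell, with 4 at an unadjusted p under 0.05. The angiogenic factor Vegfa rose by 0.54 (limma adjusted p = 0.0370), although its 3 other probes gave 0.01 to 0.59, and Nrg1, the neuregulin that signals to Schwann cells and the junction, rose by 0.48 (adjusted p = 0.0239), with 0.24 on its second probe (adjusted p = 0.213). Igf1, a growth factor of muscle, had 0.18 (95% interval -0.15 to 0.50, adjusted p = 0.37). Of 20 tested genes of receptor signalling, 0 rose and 1 fell.

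The list of response and feedback genes, which Trk and gp130 receptors induce along with many other stimuli, held 5 that rose and 0 that fell of 13 tested, and 12 of the 13 had higher means after exercise. Over all genes, 11.5% rose and 6.12% fell. The methods' t-test called 0 of this list. The 4 with the largest changes were Arc (2.13, limma adjusted p = 0.0439), Egr1 (1.47, adjusted p = 0.0390), Nr4a1 (1.40, adjusted p = 0.0338) and Socs3 (1.31, adjusted p = 0.0384). Arc, Egr1 and Nr4a1 are immediate early genes, and Socs3 is a feedback inhibitor of gp130 signalling. The list's median log2 fold change was 0.53, against 0.03 over all genes.

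The named genes whose profile over the 6 arrays was most like that of a member were found by Pearson's r, as a description across arrays that fall into 2 groups. For Ntf5 they were Tnfaip2 (r = 0.999) and Car7 (r = 0.999), with log2 fold changes of 1.36 and 0.47. For Ngfr they were Helz (r = 0.997) and 1700124L16Rik (r = 0.997), with -0.26 and -0.74. For Gdnf they were Stk26 (r = 0.998) and Adam12 (r = 0.995), with 0.48 and 0.50. The closest gene was Togaram2 for Bdnf (r = 0.969), Gm30178 for Ntf3 (r = 0.997), Ago3 for Cntf (r = 0.994), Ap3b2 for Cntfr (r = 0.994) and 6430548M08Rik for Ntrk2 (r = 0.991).

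Under the 23 other ways of processing the data that could give a value for it, Ntf5 kept its direction in 23, with log2 fold changes of 0.72 to 1.46, and passed the threshold in 14. Ngfr also kept its direction in 23 of 23, at -0.41 to -1.24, and passed in 13. Part of this was fixed in advance. With 1 probe each, Ntf5 and Ngfr had the same log2 fold changes under every filter and probe choice. The replicate block and the other tests also left these at 1.26 and -0.70. As the groups did not overlap, leaving out 1 array or comparing within 1 strip could not turn the direction. Gdnf kept its direction in 22 of 22, at 0.56 to 1.76, and passed in 5. Cntf and Cntfr kept theirs in 23 of 23 each and passed in 3 and 1. Bdnf turned in 6 of 22, Ntrk2 in 2 of 23 and Ntf3 in 1 of 23.

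**Figure D4:**
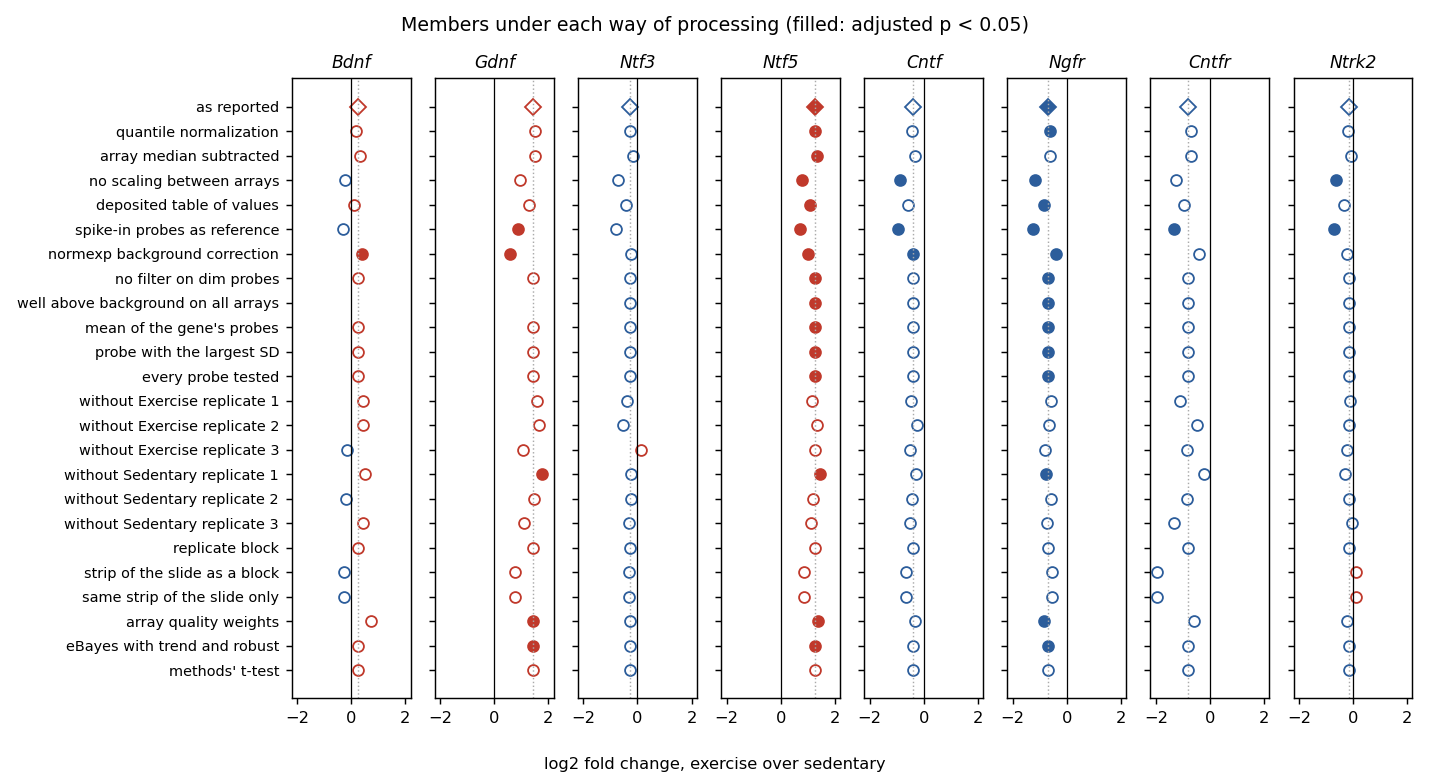
Log2 fold change of each tested member (x axis) as reported and under each alternative (y axis), red above 0 and blue below. Filled points have an adjusted p under 0.05. Ntf5 and Ngfr keep their sides of 0 in all rows, and their filled points are lost when most single arrays are left out and with a replicate or strip block, whereas Bdnf crosses 0.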

How the data were processed

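Quadriceps RNA of 6 mice (RNA integrity numbers 8.4 to 9.2 per the labels) was measured on 1-colour Agilent SurePrint G3 mouse arrays. The authors deposited intensity files of Agilent Feature Extraction 12.1.0.3, whose processed signal is background-subtracted and detrended, and a table of scaled intensities, used as an alternative only. Control spots (3671 of 62976) and outlier spots were left out, spots of a probe were averaged, and log2 of the deposited intensity minus the 75th percentile of the array was taken. A probe was kept if well above background on 3 or more arrays (32726 probes), and a gene was represented by its brightest probe. Between 54.6 and 59.9% of an array's probes were well above background, and 0 spots were saturated. Transcripts were named through a GRCm38.p6 RefSeq table (34566 probes matched, 22039 did not), used for names only since the array design is mm9. Promoter windows came from RefSeq, with 8 of 9 members listed.

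Exercise was set against sedentary in limma 3.58.1 under R 4.3.3, two-sided and without covariates, after the script was tested on simulated data. The members and lists were chosen with earlier results of these data known. Named family genes are up to 4 per list with the largest change past the threshold, plus Igf1, Il6st and Lifr, and some genes that this rule selects are not reported here. Gfra1 and Ret were added outside the rule, after their values were seen. For each member the 2 named genes of most similar profile were sought. Alternatives covered scaling, background correction, filters, probe choice, single arrays left out, blocks, tests and thresholds.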

Additional observations from a re-analysis of the deposited data

How the results depend on the processing

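The reported counts are 1 member higher and 1 lower after exercise of 8 tested, and 10 family genes higher and 5 lower of 82. In this order, the counts were 1, 1, 5 and 6 with quantile normalization, 1, 0, 11 and 3 with the array median subtracted, 1, 3, 5 and 39 without scaling, 1, 1, 4 and 10 in the deposited table of values, 2, 4, 2 and 37 with spike-in probes as reference and 3, 2, 20 and 10 with normexp background correction. The median log2 fold change of all genes, 0.03 as reported, was -0.02, 0.11, -0.45, -0.13, -0.51 and 0.09 in these settings, and over all genes the calls were 2868 higher and 1530 lower as reported but 617 and 11280 without scaling and 343 and 10584 with the spike-in probes. The counts were 1, 1, 13 and 8 with no filter on dim probes and 1, 1, 9 and 3 with the probe of the largest SD. With array quality weights they were 2, 1, 17 and 12, with a trended and robust variance 2, 1, 15 and 8, and with the methods' t-test 0, 0, 2 and 0. They were 1, 0, 5 and 0 with an added fold minimum of 1 on the log2 scale and 2, 1, 16 and 10 at an adjusted p under 0.1.

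All 4 counts were 0 with the slide's strips as a block and with only the strip that holds both groups, where the lone sedentary array is assumed to vary like the others, although 4827 and 4065 of all genes had an unadjusted p under 0.05. With each array left out in turn they ranged over 0 to 2, 0 to 1, 0 to 12 and 0 to 6, and the highest values came without sedentary mouse 1. Same-numbered mice correlated at 0.02, 0.08 and 0.04 in their deviations from the group means, and differently numbered mice at -0.107 to 0.075. With 3 mice per group, these values cannot decide whether the replicate numbers pair the mice. With the replicate block the counts were 0, 0, 0 and 0, with adjusted p-values of 0.0606 for Ntf5 and 0.0686 for Ngfr and 8591 genes at an unadjusted p under 0.05. The cause of these changes was not tested.

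Bdnf changed sign without scaling (-0.23), with spike-in probes (-0.30), in the fits with the strip as a block and within 1 strip (both -0.26), and without exercise mouse 3 or sedentary mouse 2, with a range of -0.20 to 0.50 over the arrays left out. Ntf3 changed sign without exercise mouse 3 (range -0.52 to 0.12), and Ntrk2 in the strip fits (both 0.12). The remaining members kept their direction under the alternatives run, part of which could not turn it. The low signal of Bdnf, Lif and the sedentary Gdnf arrays limits what can be said of them: with normexp correction, which pulls dim probes together, Bdnf had a log2 fold change of 0.39 and an adjusted p of 0.0242.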

Other observations

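Markers of the other cell types of muscle gave few calls. Over all genes, 11.5% rose and 6.12% fell. The neurofilament gene Nefh, of the axon and neuron list, was not well above background in any exercised mouse and was at least 1.48-fold lower there, but it passed the filter on dim probes through the sedentary arrays alone, so it could be tested only because it differed, and nothing is drawn from its call. Of 5 smooth muscle and pericyte genes 1 fell, Myh11 (log2 fold change -0.95, adjusted p = 0.0234), and of 5 adipocyte genes 1 rose, Lep (0.35, adjusted p = 0.0415), while the other 4 had lower means. Among fibroblast, macrophage, endothelial and red blood cell markers, 0 of 6, 7, 5 and 3 were called by limma or by the methods' t-test, with 0, 0, 0 and 1 at an unadjusted p under 0.05.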
